A study of Homo sapiens with 6 samples.

Results

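The genes described here are 10 components of the WNT pathway, taken by gene symbol from a table of 58735 genes: the secreted antagonist DKK1, the co-receptors LRP5 and LRP6, the receptor-clearing ligases RNF43 and ZNRF3, the scaffolds AXIN1 and AXIN2, CTNNB1, and the transcription factors TCF7 and TCF7L2. All 10 were found by name, each in 1 row. They were selected on the FPKM values of the comparison described here as well as on their place in the pathway, so differences between the groups in these genes are a description and not an independent test. RNA sequencing had been done on 6 libraries labelled as Hep3B, a human hepatocellular carcinoma line: 3 carried a short hairpin RNA (shRNA) against HYOU1 and 3 a control shRNA. The HYOU1 protein helps others to fold in the endoplasmic reticulum. The labels do not say how many hairpins were used, what the control hairpin targets, or whether the 3 libraries of a group came from separate cultures, so p-values measure the spread between libraries, which may be technical.

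In the canonical WNT pathway, WNT ligands bind a frizzled receptor together with LRP5 or LRP6. This stops a destruction complex, built on AXIN1 or AXIN2, from marking the CTNNB1 product beta-catenin for degradation. Beta-catenin then enters the nucleus and activates genes with TCF and LEF proteins. AXIN2, RNF43, ZNRF3 and DKK1 are themselves induced by the pathway in many tissues and restrain it. In liver the pathway sets the metabolic zones of the lobule, and it is often mutated in hepatocellular carcinoma. Most control acts on the beta-catenin protein, which was not measured here.

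The 250 bases before the annotated start of DKK1 and AXIN1 are shown because, of the members, these had the lowest and the highest fold change. They come from the RefSeq promoter table (GRCh38.p14) and run 5′ to 3′ on the gene's own strand. Capitals mark CTTTGA, the core of the TCF and LEF binding motif, on either strand (TCAAAG on the other).
DKK1, chr10:52314031-52314280, plus strand: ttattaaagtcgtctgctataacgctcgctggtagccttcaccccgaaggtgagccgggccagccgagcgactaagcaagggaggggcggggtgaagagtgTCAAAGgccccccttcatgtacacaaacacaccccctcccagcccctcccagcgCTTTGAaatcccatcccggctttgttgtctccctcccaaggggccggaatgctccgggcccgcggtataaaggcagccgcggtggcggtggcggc
AXIN1, chr16:352724-352973, minus strand: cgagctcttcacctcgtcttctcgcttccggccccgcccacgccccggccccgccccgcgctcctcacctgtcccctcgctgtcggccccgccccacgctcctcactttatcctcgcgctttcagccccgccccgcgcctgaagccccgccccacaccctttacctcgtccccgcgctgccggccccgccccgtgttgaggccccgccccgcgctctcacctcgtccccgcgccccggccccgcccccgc
The DKK1 window held 2 matches, which began 149 and 95 bases before the start, and the AXIN1 window held none. Of 35116 windows of this length in the table, 11.2% held at least 1 match and 0.98% at least 2. Promoters were found for 7 of the 10 genes, in 11 entries, and among these the DKK1 window was the only one with a match. AXIN2, LRP6 and ZNRF3 had no entry. A match describes letters in the window and is not evidence of binding.

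Values are FPKM, fragments per kilobase of gene scaled to a library total, as deposited. Between 16893091 and 18233240 fragments per library were recovered from the FPKM steps, and 3 fragments were worth 0.160 to 0.176 FPKM for a gene of 1 kb (counting error only). HYOU1 was at 2.35, 2.32 and 2.37 FPKM in the shHYOU1 libraries, against 37.6, 58.2 and 59.5 FPKM in shControl replicates 1, 2 and 3, so each library matched its label. The labelled cell type was not matched by hepatocyte markers: 1 of 13, HNF4A, reached a mean of 1 FPKM, and ALB, APOA2, APOB and TTR were at 0 in every library. The summed hepatocyte markers were at 2.06 to 2.40 FPKM in shHYOU1 and 3.64 to 4.32 FPKM in shControl libraries. The sums were 60.7 to 66.0 against 49.7 to 56.7 FPKM for biliary markers (4 of 5 reached 1 FPKM) and 131 to 137 against 91.0 to 108 FPKM for stellate and fibroblast markers (5 of 9 reached it, with COL1A2 at 0). Most of each sum came from 1 gene, KRT7 at 30.6 to 56.8 FPKM among the biliary and VIM at 78.6 to 126 FPKM among the stellate and fibroblast markers, over all 6 libraries. The immune markers summed to 0.611 to 0.941 against 0.602 to 1.83 FPKM and the endothelial markers to 0.179 to 0.221 against 0.514 to 0.654 FPKM. None of these 11 genes reached 1 FPKM on average, and PTPRC, CD3E, LYZ and KDR were at 0. The part of these differences in the results was not tested, and in bulk RNA fewer cells of a type and less RNA per cell cannot be told apart. shControl replicate 1 stood apart: across genes, its log2 values had correlations of 0.906 and 0.892 with the other controls, against 0.971 between these (a description, since genes are not replicates). Mitochondrial genes held 3.39% to 3.84% of the fragments in shHYOU1 libraries and 4.96% to 7.59% in shControl libraries, without overlap and highest in shControl replicate 1, and the part of this in the results was not tested. Results are therefore also given without it.

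Of the 10 genes, 8 reached the mean of 1 FPKM needed for a test, and RNF43 and TCF7 did not. The fit compared log2(FPKM + 0.1) over all 12448 genes at that level (limma with Benjamini-Hochberg adjustment, threshold 0.05). The members' folds and adjusted p show where they lie in that fit. With HYOU1 shRNA, DKK1 and AXIN2 fell and no other member passed. These 2 of 8 stood beside 12.3% of all tested genes called (6.60% higher and 5.66% lower), and the median log2 fold change was -0.21 over the 8, against 0.04 over all tested genes. Without shControl replicate 1, 6 of 8 passed (DKK1, AXIN2, ZNRF3 and LRP6 lower, AXIN1 and CTNNB1 higher) beside 44.3% of all genes. Another fit used a GC correction, based on each gene's log2 deviation from its mean over the libraries. The trend of these deviations with GC content was removed from each library. After the GC correction 7 passed, LRP5 being the added one at a lower level, beside 40.5%. A single member, DKK1, passed without shHYOU1 replicate 1, 2 or 3 or without shControl replicate 2, and of all tested genes 1.01%, 0.683%, 0.394% and 2.87% passed in these fits. For 6 of the 8, shHYOU1 and shControl values did not overlap (2 higher, 4 lower), against 44.4% of all tested genes (23.8% higher, 20.6% lower).

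**Figure D1:**
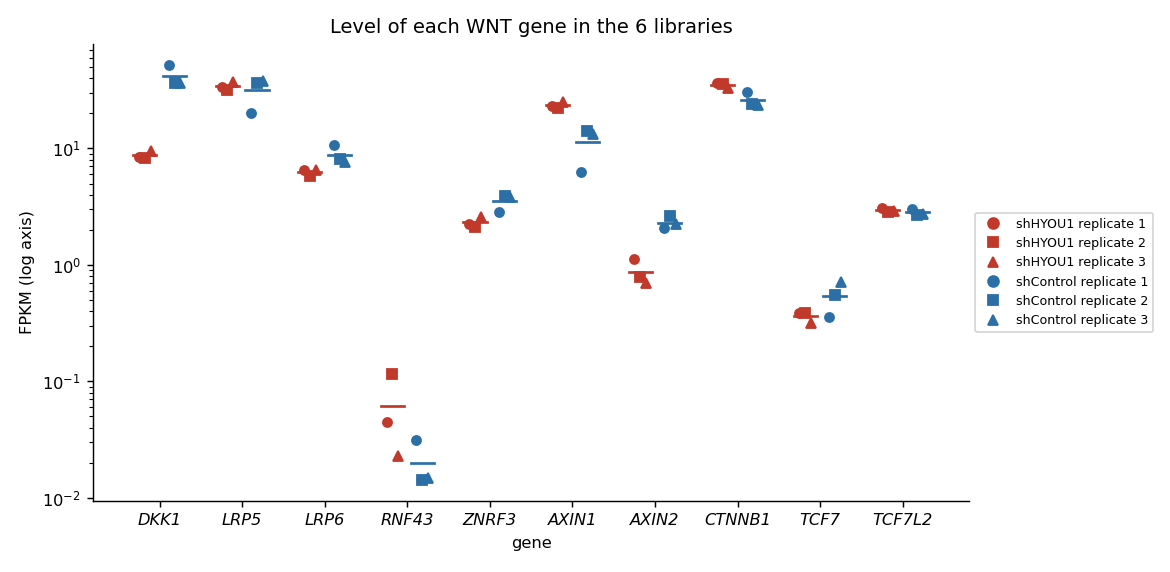
FPKM (log axis) of the 10 genes, with 1 point per library, shHYOU1 left of shControl for each gene, and bars at group means. DKK1, AXIN2, LRP6 and ZNRF3 lie lower, and AXIN1 and CTNNB1 higher, in all shHYOU1 libraries than in any shControl library. Of these only DKK1 and AXIN2 passed with all libraries, and 44.4% of all tested genes separate in 1 direction or the other. RNF43 lies at or below 0.116 FPKM throughout.

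DKK1 (ENSG00000107984, chromosome 10, 52314296 to 52318042 on GRCh38), a secreted protein that binds LRP5 and LRP6 and keeps WNT from using them, had the largest fold change of the members. It was at 8.43, 8.29 and 9.43 FPKM in shHYOU1 libraries, against 52.3, 36.4 and 36.6 FPKM in shControl libraries. All shHYOU1 values were lower than every shControl value, and the highest control was replicate 1. It averaged 8.72 ± 0.622 FPKM in shHYOU1 and 41.8 ± 9.13 FPKM in shControl libraries (SD, n = 3 each), 4.79-fold lower with HYOU1 shRNA. The log2 fold change of -2.23 (SE 0.17; limma, adjusted p = 0.00302) was the 48th lowest of the 12448 genes tested. It stayed between -2.32 and -2.06 in 18 alternative fits, with adjusted p from 2.68e-06 to 0.0384. The DKK1 values rested on 333 to 364 fragments per shHYOU1 library and 1449 to 1970 per shControl library.

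LRP6 and LRP5, single-pass co-receptors that bind WNT and DKK1 and recruit AXIN when active, did not pass with all libraries. LRP6 (ENSG00000070018, chromosome 12, 12116025 to 12267012) was at 6.48, 5.76 and 6.47 FPKM in shHYOU1 libraries, against 10.7, 8.04 and 7.72 FPKM in shControl libraries. The groups did not overlap, and the highest value was again that of shControl replicate 1. LRP6 had a log2 fold change of -0.48 (SE 0.16; limma, adjusted p = 0.0984). It passed without that library, at -0.33 (SE 0.09, adjusted p = 0.0158), and adjusted p ranged from 0.0112 to 0.296 over the alternatives. LRP5 (ENSG00000162337, chromosome 11, 68312609 to 68449275) was at 33.8, 32.0 and 37.5 FPKM in shHYOU1 libraries, against 20.3, 36.3 and 37.8 FPKM in shControl libraries. Its groups overlapped, with shControl replicate 1 far below the other libraries. The log2 fold change of LRP5 was 0.18 (SE 0.25; limma, adjusted p = 0.645), but -0.11 without shControl replicate 1 (adjusted p = 0.294) and -0.22 after the GC correction (adjusted p = 0.0204), a fit that kept that library, so its direction depended on the processing.

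ZNRF3 and RNF43 are transmembrane ubiquitin ligases that remove frizzled receptors from the cell surface. ZNRF3 (ENSG00000183579, chromosome 22, 28883592 to 29057487) was at 2.24, 2.12 and 2.58 FPKM in shHYOU1 libraries, against 2.86, 3.88 and 3.80 FPKM in shControl libraries. Every shHYOU1 value was lower than every shControl value, and the lowest control was replicate 1. ZNRF3 had a log2 fold change of -0.57 (SE 0.18; limma, adjusted p = 0.0803), and -0.71 without shControl replicate 1 (SE 0.12, adjusted p = 0.00239; 0.00220 to 0.255 over the alternatives). RNF43 (ENSG00000108375, chromosome 17, 58352500 to 58417595) had 6, 16 and 3 fragments in shHYOU1 libraries, against 4, 2 and 2 in shControl libraries. At 0.0447, 0.116 and 0.0229 FPKM against 0.0312, 0.0142 and 0.0148 FPKM, its groups overlapped. In shControl replicates 2 and 3 it lay below the 0.0213 to 0.0234 FPKM that 3 fragments would give, so no fold is given and no difference was detectable at this depth.

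AXIN1 and AXIN2, alternative scaffolds of the destruction complex, had fold changes of opposite sign, of which that of AXIN2 passed. AXIN2 is also a widely used readout of beta-catenin activity, because its transcription depends on it. AXIN2 (ENSG00000168646, chromosome 17, 65528563 to 65561647) was at 1.12, 0.781 and 0.700 FPKM in shHYOU1 libraries, against 2.09, 2.60 and 2.23 FPKM in shControl libraries. The groups did not overlap, with shHYOU1 replicate 1 nearest to the controls. AXIN2 averaged 0.868 ± 0.224 FPKM in shHYOU1 and 2.31 ± 0.268 FPKM in shControl libraries (SD, n = 3 each), from 64 to 105 fragments per shHYOU1 library and 186 to 255 per shControl library. The log2 fold change was -1.33 (SE 0.23; limma, adjusted p = 0.0183). AXIN2 did not pass without shControl replicate 2 (adjusted p = 0.0781) or without shHYOU1 replicate 1, 2 or 3 (adjusted p = 0.0585, 0.0961 and 0.0932), although the fold stayed between -1.51 and -0.83 over all alternatives (adjusted p from 0.00186 to 0.0961).

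AXIN1 (ENSG00000103126, chromosome 16, 287440 to 352673) was at 23.3, 22.4 and 25.1 FPKM in shHYOU1 libraries, against 6.34, 14.1 and 13.4 FPKM in shControl libraries. All shHYOU1 values were higher than every shControl value, and shControl replicate 1 was the lowest by far. AXIN1 averaged 23.6 ± 1.36 FPKM in shHYOU1 and 11.3 ± 4.28 FPKM in shControl libraries (SD, n = 3 each), a ratio of 2.09. The log2 fold change of 1.14 (SE 0.31) did not pass (limma, adjusted p = 0.0583). Without shControl replicate 1 it was smaller, at 0.78, with a narrower error (SE 0.07, adjusted p = 0.000118), and it was 0.71 after the GC correction (adjusted p = 0.000573). Over the 18 alternatives the adjusted p ran from 0.000118 to 0.195, and the fold from 0.67 to 1.35.

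The plot of AXIN1 against AXIN2 separates the groups in both directions. Taken singly, 44.4% of all tested genes separated them. Per length, the FPKM ratio of AXIN1 to AXIN2 was 20.7, 28.7 and 35.8 in shHYOU1 libraries, against 3.04, 5.40 and 6.01 in shControl libraries. AXIN1 was thus the more abundant transcript in every library. The summed FPKM of the pair was 24.4, 23.2 and 25.8 in shHYOU1 libraries, against 8.42, 16.7 and 15.6 in shControl libraries. For the co-receptors, the ratio of LRP5 to LRP6 was 5.22, 5.56 and 5.79 in shHYOU1 libraries, against 1.90, 4.51 and 4.89 in shControl libraries. Their sums overlapped, at 40.7 ± 3.10 FPKM in shHYOU1 and 40.3 ± 8.04 FPKM in shControl libraries (SD, n = 3 each). Among the controls, replicate 1 had the lowest value for both ratios and both sums. In that library LRP5 differed from the other controls by -0.86 (log2) and LRP6 by 0.44.

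**Figure D2:**
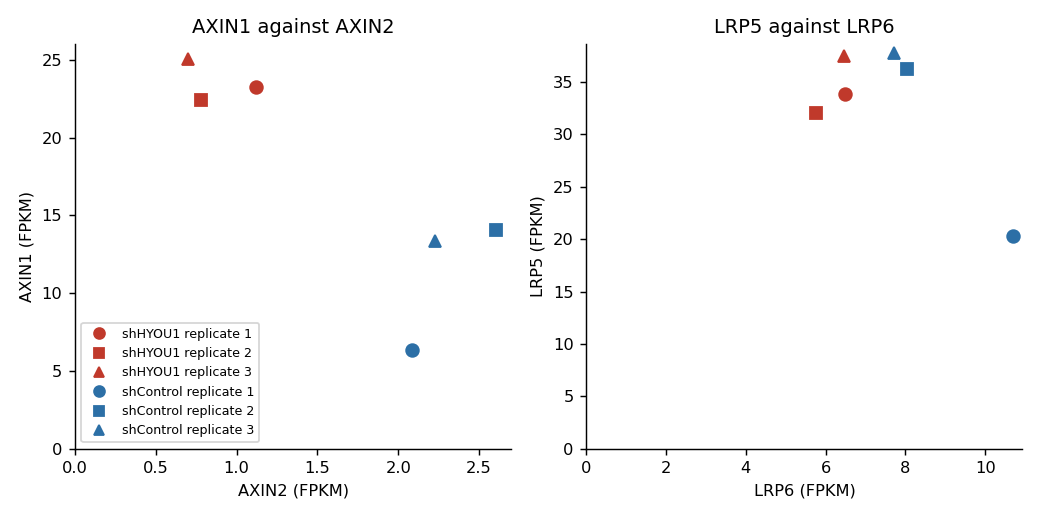
FPKM of AXIN1 against AXIN2 (left) and of LRP5 against LRP6 (right), with 1 point per library and linear axes from 0. The shHYOU1 libraries combine more AXIN1 with less AXIN2 than any shControl library, while in the right panel LRP5 overlaps between the groups and shControl replicate 1 lies apart at 20.3 FPKM.

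CTNNB1 (ENSG00000168036, chromosome 3, 41194741 to 41260096), which encodes beta-catenin, a transcriptional coactivator and a link between cadherins and actin, was at 36.3, 36.1 and 33.3 FPKM in shHYOU1 libraries, against 30.8, 24.1 and 23.4 FPKM in shControl libraries. The groups did not overlap, and the control nearest to the shHYOU1 libraries was replicate 1. On the log2 scale the fold change was 0.44 (SE 0.14; limma, adjusted p = 0.0875). It was 0.56 without shControl replicate 1 (SE 0.07, adjusted p = 0.000330) and 0.55 after the GC correction (adjusted p = 0.000426), with a range of 0.000144 to 0.262 over the alternatives. CTNNB1 overlaps ULK4 on the other strand, which averaged 1.74 FPKM in shHYOU1 and 1.35 FPKM in shControl libraries.

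TCF7L2 and TCF7 bind DNA at the motif above and recruit beta-catenin. TCF7L2 (ENSG00000148737, chromosome 10, 112950250 to 113167678) was at 3.11, 2.84 and 2.93 FPKM in shHYOU1 libraries, against 3.02, 2.70 and 2.75 FPKM in shControl libraries. The groups overlapped, and the log2 fold change was 0.06 (SE 0.13; limma, adjusted p = 0.764; 0.244 to 0.933 over the alternatives). TCF7 (ENSG00000081059, chromosome 5, 134114711 to 134151865) was at 0.383, 0.389 and 0.318 FPKM in shHYOU1 libraries, against 0.355, 0.557 and 0.714 FPKM in shControl libraries. Its groups overlapped through shControl replicate 1, and it was below the level needed for a test. TCF7 overlaps SKP1 on the other strand, which averaged 10.3 FPKM in shHYOU1 and 13.97 FPKM in shControl libraries. No step that marks the strand is named in the labels' protocols, so low values of TCF7 are uncertain.

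**Figure D3:**
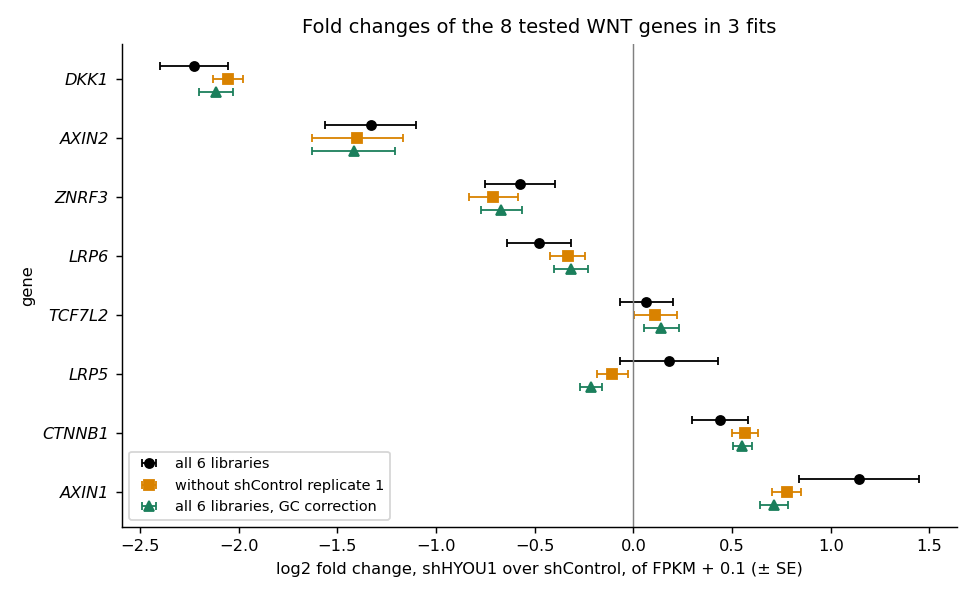
Log2 fold change (shHYOU1 over shControl, of FPKM + 0.1) with its standard error for the 8 tested genes, in the fit of all 6 libraries, without shControl replicate 1, and after the GC correction. DKK1 stays near -2 and AXIN2 near -1.4, AXIN1 moves from 1.14 to 0.78 and 0.71, and LRP5 changes sign.

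The order of levels differed between the groups mainly through DKK1. In shHYOU1 libraries CTNNB1 and LRP5 stood highest, at 35.2 ± 1.68 and 34.4 ± 2.78 FPKM (SD, n = 3 each) with overlapping values. AXIN1, DKK1, LRP6, TCF7L2, ZNRF3, AXIN2, TCF7 and RNF43 followed, each without overlap with its neighbour. In shControl libraries DKK1 stood first by mean, followed by LRP5 and CTNNB1 at 31.4 ± 9.67 and 26.1 ± 4.07 FPKM. That lead came from shControl replicate 1 (52.3 against 20.3 FPKM for LRP5). In shControl replicates 2 and 3 DKK1 was at 36.4 and 36.6 FPKM and LRP5 at 36.3 and 37.8 FPKM. DKK1 overlapped LRP5 and LRP5 overlapped CTNNB1. AXIN1 overlapped LRP6 there, and ZNRF3 overlapped TCF7L2, while AXIN2, TCF7 and RNF43 were separate at the low end. Except for that of DKK1 with LRP5, these overlaps arose only through shControl replicate 1. Leaving aside RNF43, the coefficient of variation in shHYOU1 libraries was 4.70% to 10.9%, except for AXIN2 at 25.8%.

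Part of the spread among the controls followed base composition. In shControl replicate 1, the tested genes in the bottom 10% by GC content were higher than in the mean of shControl replicates 2 and 3 by a median of 0.76 (log2), and those in the top 10% differed by -1.0. AXIN1 and LRP5, with 63.8% and 62.8% GC in their longest transcript, belong to that top 10%, and in that library they differed from the other controls by -1.10 and -0.86. LRP6, CTNNB1 and DKK1, at 40.2% to 43.5% GC, differed by 0.44, 0.37 and 0.52. AXIN2 and ZNRF3, at 53.1% and 53.5% GC, differed by -0.20 and -0.41. Against shControl replicates 2 and 3 alone, the shHYOU1 libraries differed by -2.06 for DKK1, -1.40 for AXIN2, 0.78 for AXIN1 and 0.56 for CTNNB1, so these differences were present without that library.

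**Figure D4:**
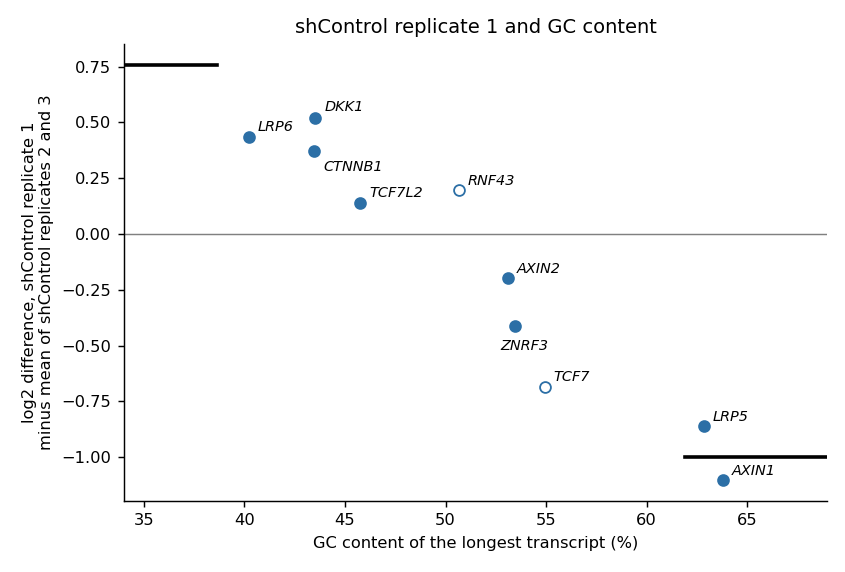
Log2 difference of shControl replicate 1 from the mean of shControl replicates 2 and 3 against the GC content (%) of the longest transcript, for the 10 genes (open circles: not tested). Black bars mark the median of all tested genes in the lowest and highest 10% of GC content, at 0.76 and -1.0, and are drawn from the bound of that range to the edge of the plot.

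The 10636 tested protein-coding genes outside the member list were ranked by likeness to DKK1 and AXIN2, as the root mean square distance between centred log2 values over the 6 libraries. The nearest to DKK1 was C4BPA, which encodes a regulator of complement, at a distance of 0.0846, with 1.52 ± 0.0717 FPKM in shHYOU1 and 7.31 ± 1.78 FPKM in shControl libraries (SD, n = 3 each). PSAT1, an enzyme of serine synthesis, and TSHZ2, a zinc finger homeobox protein, followed at distances of 0.0963 and 0.127. The nearest to AXIN2 were RBP5, a retinol-binding protein, BICRAL, a chromatin remodelling subunit, and SVEP1, an extracellular matrix protein, at 0.172, 0.188 and 0.197. RBP5 averaged 1.51 ± 0.371 FPKM in shHYOU1 and 4.71 ± 0.558 FPKM in shControl libraries. None of these 6 genes is in the list of other WNT genes, but only 77 genes of that list were tested, so nothing is concluded from this. Likeness here rests on the same values as the fold changes.

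The rest of the pathway was described with 118 other WNT genes in 7 classes, of which 77 were tested. Of these, 12 rose, 5 fell and 60 did not pass, 22.1% called against 12.3% of all tested genes. Their median log2 fold change was 0.15, against 0.04 over all tested genes. This list too was chosen with earlier results of these data known, so these values are a description and not an independent test. The number of calls depended on single libraries, for these genes as for all tested genes. Without shControl replicate 1, 44 of the 77 passed (57.1%, 30 higher and 14 lower), against 44.3% of all tested genes. Without shControl replicate 3, 8 passed (10.4%, 6 higher and 2 lower), against 8.21% of all tested genes. Without shControl replicate 2 a single gene, WNT11, did (1.3%), against 2.87%. Without shHYOU1 replicate 1, 2 or 3, limma called 0 of the 77, with 22, 23 and 20 at an unadjusted p under 0.05, beside 1.01%, 0.683% and 0.394% of all genes called. Over the 18 alternatives, each of the 17 lost its call in at least 3 (WNT11) and at most 10 (FZD5 and FZD6).

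Among ligands and genes of ligand release, 3 of 9 tested rose and 0 fell (33.3% called, beside 12.3% of all tested genes). WNT11 averaged 8.04 ± 0.241 FPKM in shHYOU1 and 3.38 ± 0.934 FPKM in shControl libraries, a log2 fold change of 1.26 (SE 0.22; limma, adjusted p = 0.0197). WNT6 and WNT9A rose by 1.24 and 0.78. Without shControl replicate 1 their folds were 1.02 for WNT11, 0.94 for WNT6 and 0.62 for WNT9A, and after the GC correction 0.98, 0.60 and 0.50, and all 3 passed in both fits. WNT9A (adjusted p = 0.0473 with all libraries) lost its call in 8 of the 18 alternatives, among them the filter of 0.1 FPKM, and WNT6 in 5. Among receptors and R-spondins, 2 of 15 rose and 2 fell (26.7% called). The frizzled receptor FZD8 was at 4.34, 3.90 and 4.82 FPKM in shHYOU1 libraries, against 1.73, 2.04 and 2.45 FPKM in shControl libraries. FZD8 rose by 1.04 and FZD5 by 0.71, while FZD6 fell by 0.93 and ROR2, a WNT-binding receptor tyrosine kinase, fell by 0.49. Without shControl replicate 1 the folds of FZD8, FZD5, FZD6 and ROR2 were 0.93, 0.56, -0.67 and -0.54, and each passed. The calls of FZD5, FZD6 and ROR2 lay close to the threshold (limma, adjusted p = 0.0491, 0.0484 and 0.0407) and were lost in 10, 10 and 9 of the 18 alternatives, all 3 with the filter of 0.1 FPKM, where adjusted p was 0.0668, 0.0634 and 0.0561. Over the alternatives adjusted p ran from 0.00466 to 0.184 for FZD5, 0.000480 to 0.180 for FZD6 and 0.000391 to 0.180 for ROR2. After the GC correction FZD8 was at 0.59 and no longer passed (adjusted p = 0.0519; 0.000912 to 0.105 over the alternatives).

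Of the antagonists outside the member list, 1 of 5 tested rose (20% called, beside 12.3% of all tested genes). This was KREMEN2, a receptor for DKK proteins that helps remove LRP6. KREMEN2 averaged 15.1 ± 2.06 FPKM in shHYOU1 and 7.15 ± 2.36 FPKM in shControl libraries (SD, n = 3 each). It rose by 1.12 on the log2 scale (limma, adjusted p = 0.0464), and by 0.53 after the GC correction. The KREMEN2 call was lost in 8 of the 18 alternatives, among them the filter of 0.1 FPKM. Of 20 cytoplasmic components, 1 rose and 1 fell (10% called, below the 12.3% of all tested genes). AMER1, a membrane-bound partner of APC and AXIN, rose by 0.66. USP34, a deubiquitinase that acts on AXIN, fell by 1.31. Without shControl replicate 1 the log2 fold changes of AMER1 and USP34 were 0.63 and -0.99, and both passed. The calls of AMER1 and USP34 were lost in 7 and 5 of the 18 alternatives. Of 14 nuclear cofactors, 1 rose and 2 fell (21.4% called). BCL9, an adaptor of beta-catenin, rose by 0.63, and the acetyltransferases EP300 and CREBBP fell by 0.82 and 0.68. The calls of BCL9, EP300 and CREBBP were lost in 6, 6 and 7 of the 18 alternatives. Of the 4 tested genes of the cadherin complex, 0 passed in the limma fit of all libraries and 1 had an unadjusted p under 0.05. JUP, which encodes plakoglobin, averaged 189 ± 9.89 FPKM in shHYOU1 and 127 ± 32.1 FPKM in shControl libraries (adjusted p = 0.0997). It passed in 4 of the 18 alternatives, over which adjusted p ran from 0.00117 to 0.282. CTNNA1, which encodes alpha-catenin, averaged 73.6 ± 1.34 FPKM in shHYOU1 and 71.4 ± 7.35 FPKM in shControl libraries (adjusted p = 0.800; 0.0218 to 0.997 over the alternatives).

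Among 10 tested target genes, 4 rose and 0 fell, 40% called beside 12.3% of all tested genes (6.60% higher, 5.66% lower). CCND1, the cell cycle regulator cyclin D1, was at 41.7, 38.3 and 37.9 FPKM in shHYOU1 libraries, against 29.2, 22.8 and 23.6 FPKM in shControl libraries. Its log2 fold change was 0.65 (SE 0.13; limma, adjusted p = 0.0301). MYC, a growth-promoting transcription factor, rose by 0.75, CD44, an adhesion receptor, by 0.55 and EPHB2, an ephrin receptor, by 1.13. Over the 18 alternatives the calls of MYC and CCND1 were each lost in 7, that of CD44 in 8 and that of EPHB2 in 4. The other targets tested, SP5, TBX3, GLUL, SOX9, ID2 and PPARD, lay between -0.04 and 0.23 and did not pass. These 6 are all the remaining tested targets of a list chosen with earlier results of these data known. A further 7 targets were below the level needed for a test. Among the members that the pathway is known to induce, DKK1 and AXIN2 fell, ZNRF3 was lower without overlap but did not pass, and RNF43 was too low to compare.

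**Figure D5:**
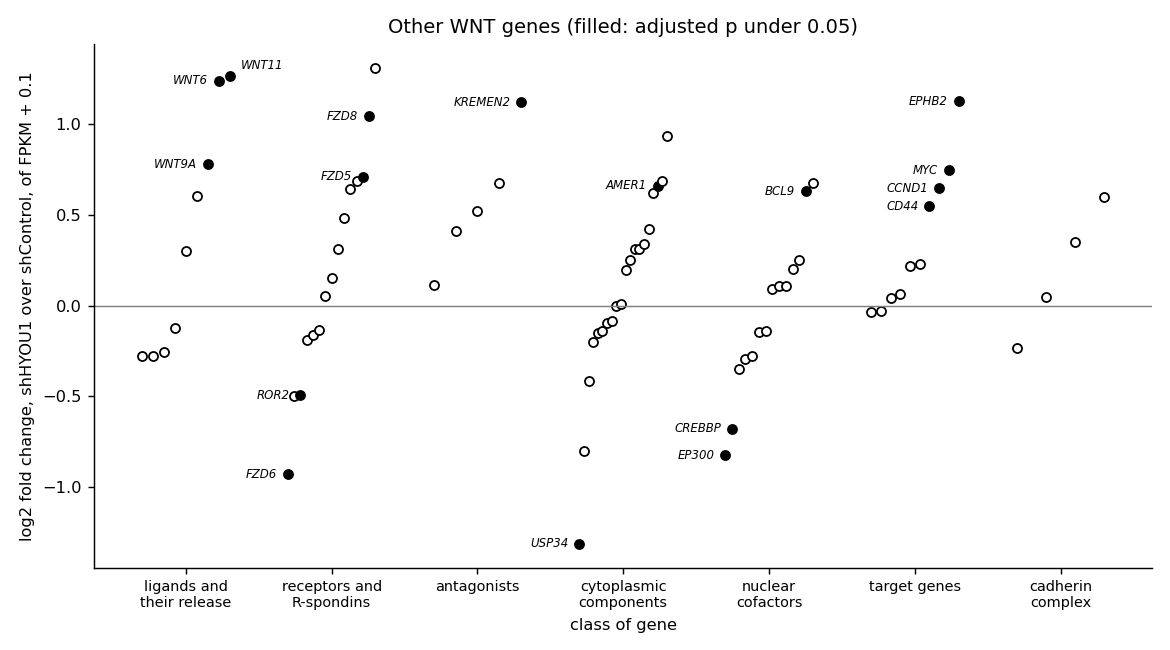
Log2 fold change (shHYOU1 over shControl, of FPKM + 0.1) of the 77 tested other WNT genes by class, with filled and named points for the 17 that passed. The target genes that passed are all higher, and receptors, cytoplasmic components and nuclear cofactors hold passed genes on both sides of 0.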

How the data were processed

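Polyadenylated RNA of 6 libraries was captured with oligo(dT) beads and copied with random hexamers, per the labels' protocols. The authors deposited FPKM values with the length and coordinates of each gene, per the file headers. The aligner and counter were not given in the sources used here. Each of the 58735 gene identifiers, with its position, matched GENCODE release 29 (GRCh38). FPKM times gene length came in whole multiples of 1 step per library for all values within 0.01 fragments, which gave the fragment counts.

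The values were transformed to log2(FPKM + 0.1), a scale that understates folds of weak genes. Genes whose mean over the 6 libraries reached 1 FPKM entered limma 3.58.1, run in R 4.3.3 (eBayes with variance trend and robust priors, Benjamini-Hochberg adjusted). The fit was also run on simulated data with independent errors, whose spread was estimated without shControl replicate 1. Those data held no GC trend and no deviating library, so that run cannot show how the fit handles either. Alternatives were other pseudocounts, filters and scalings, the replicate number as a block, a GC correction, voom on recovered fragments, and leaving out each library. For the GC correction, the lowess trend (span 0.3) of deviations from the gene mean on transcript GC content was removed per library. The GC correction also removes real differences that follow GC content.

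The members and lists were chosen with earlier results of these data known. Named outside the members were HYOU1, up to 4 called genes with the largest change per class (or, with none called, the 2 of highest mean), and the 3 genes most like DKK1 and AXIN2. Motifs were searched in RefSeq promoters.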

Additional observations from a re-analysis of the deposited data

How the results depend on the processing

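Without a filter on low values 770 of 30059 genes were called (2.56%), and 3 of 110 other WNT genes (2.73%: WNT11, FZD8 and EPHB2). The GC correction gave 5047 genes (40.5%), 7 members and 37 other WNT genes (48.1%). With the replicate block as well it gave 4504 (36.2%), 7 and 34 (44.2%). Without shControl replicate 1 as well it gave 6050 (48.6%), 7 and 49 (63.6%). Leaving out single libraries gave 49 to 5518 genes, 1 to 6 members and 0 to 44 other WNT genes. Pseudocounts, the filter of 0.1 FPKM, TPM, quantile and median-of-ratios scaling and voom kept these counts within 1.5 times, and voom called AXIN1 as well (adjusted p = 0.0384). TPM scaling split all calls into 875 higher and 607 lower, and quantile normalization into 743 and 770, against 822 and 704. The cause of these changes was not tested.

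The replicate block gave 940 genes in all (7.55%), 2 members and 7 other WNT genes (9.09%). Same-numbered libraries deviated together at r = 0.125, -0.0933 and 0.170 across genes, so the numbers were not taken as pairs.

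LRP5 changed sign, at -0.22 after the GC correction with and without the block, -0.20 after it without shControl replicate 1, and -0.11 without that library alone, with a range of -0.11 to 0.34 over the fits that left out 1 library. CTNNA1 did so at -0.070 with quantile normalization, and ranged from -0.0011 (without shControl replicate 3) to 0.13 with 1 library left out. DKK1 and TCF7L2 kept their side of the threshold and their direction in all 18 alternatives.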
